A study of Mus musculus with 2 samples.

Results

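The formins are a family of proteins that start and lengthen unbranched actin filaments. The 10 members described here are Diaph1, Diaph2, Diaph3, Fmnl1, Fmnl2, Fmnl3, Daam1, Fmn1, Fhod3 and Inf2, found by gene symbol among the 18032 genes of the deposited expression table. The series compared mouse embryonic stem cells in the naive ground state (mESC) with epiblast stem cells converted from such cells in culture (cEpiSC), with 1 library of polyadenylated RNA for each. The mESC were the wild-type line ES-E14TG2a in 2iLIF, serum-free N2B27 medium with LIF (100 units/ml), 1 µM PD0325901, which blocks ERK signalling, and 3 µM CHIR99021, which inhibits GSK3. The cEpiSC, also labelled wild type, were plated on fibronectin in 2iLIF and after 24 h were kept for 2 days in N2B27 containing activin A (20 ng/ml) and FGF2 (12 ng/ml). Both libraries come from 1 cell line. Cell state and medium changed together, and these and any difference in plate coating cannot be told apart.

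A formin holds the growing (barbed) end of a filament with a dimer of FH2 domains, while its proline-rich FH1 domain feeds in actin bound to profilin. Many formins are folded shut until they are activated, so transcript level is only one of the things that set their activity. In stem cells and epithelia, formins are known for building the actin bundles and cables at cell junctions and beneath the membrane.

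The promoter sequences of the FMNL genes and of Fmn1 are shown first, because Fmnl1 and Fmn1 were the members lower by the 2-fold rule used below, while Fmnl2 and Fmnl3 are close relatives of Fmnl1 that were not. RefSeq's promoter table for GRCm38.p6 held entries for 8 of the 10 members. Each stretch ends at the base before the outermost annotated start of its gene, reads 5′ to 3′ on the gene's strand, and has CpG dinucleotides in capitals.
Fmnl1, chr11:103170888-103171003, plus strand: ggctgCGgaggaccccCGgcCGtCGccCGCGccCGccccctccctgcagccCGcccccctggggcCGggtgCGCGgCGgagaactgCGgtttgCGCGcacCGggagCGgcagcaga
Fmnl2, chr2:52857618-52857716, plus strand: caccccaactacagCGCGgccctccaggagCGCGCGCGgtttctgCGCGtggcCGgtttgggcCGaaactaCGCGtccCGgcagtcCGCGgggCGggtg
Fmnl3, chr15:99370522-99370732, minus strand: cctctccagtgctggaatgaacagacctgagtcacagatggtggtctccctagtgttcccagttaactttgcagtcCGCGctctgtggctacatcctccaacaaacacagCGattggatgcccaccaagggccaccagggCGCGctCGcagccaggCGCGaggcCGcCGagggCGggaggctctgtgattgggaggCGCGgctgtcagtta
Fmn1, chr2:113327486-113327663, plus strand: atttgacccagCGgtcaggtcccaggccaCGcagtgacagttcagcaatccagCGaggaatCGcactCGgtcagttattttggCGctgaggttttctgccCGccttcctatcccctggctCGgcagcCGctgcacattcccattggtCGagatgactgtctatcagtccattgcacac

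The stretches of Fmnl1 and Fmnl2 held 17 CpG in 116 bases and 16 in 99 bases. Fmnl3 had 13 in 211 bases and Fmn1 had 10 in 178 bases. The transcripts of Fmnl1 and Fmnl2 had log2 ratios of opposite sign, and the part of CpG content in the ratios was not tested. Over the full 250 bases before the start site of each promoter entry, the table's 32851 promoters had a median GC content of 52.4%. For the members, that site lies downstream of the gene's outermost annotated start. Some or all of these 250 bases therefore lie inside the annotated gene. Fmnl1 stood at 79.2%, Fmnl2 at 77.6%, Fmnl3 at 65.2% and the upstream start of Fmn1 at 60.8%. Fmn1 has a second, internal start in the table, with 0 CpG in its 250 bases and a GC content of 44.4%.

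Short motifs were searched on both strands of the same 250 bases in the 11 entries of the 8 members. The GC box (GGGCGG) was in 8 of the 11 entries, from all members but Diaph3, and in 32.7% of all promoters. Most entries were richer in GC than the median promoter, and matches were not adjusted for this. A TCF motif (CTTTGAN) was found in Diaph2 and Daam1 (2 of the 11 entries), against 13.8% of all promoters. The E-box CACGTG was found in Diaph2 and Inf2 (3 of the 11 entries, 2 of the 8 members), against 6.02%. The Inf2 entries share most of their bases, so its GC box and E-box matches can count in both. No entry held TATAAA (12.4% of all promoters), the ERR motif AAGGTCA (4.08%), the STAT motif TTCNNNGAA (7.02%), the OTX motif TAATCC (6.25%) or a CArG box, the element bound by SRF (1.47%). No motif was searched outside these windows, and no overlap between motifs was removed.

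The libraries held 19843731 (mESC) and 19956736 (cEpiSC) estimated counts, and the naive and primed markers differed in the direction of the labelled states. Of 8 naive-state markers 6 were at least 2-fold lower in cEpiSC, led by Tfcp2l1 (677 and 59.3 CPM, counts scaled to library size), and all 8 primed-state markers were at least 2-fold higher, among them Fgf5 (0 and 276 counts, at least 87.0-fold against a floor of 3 counts) and Pou3f1 (10 and 961 counts). The other naive markers, Zfp42 (514 and 281 CPM) and Nr0b1 (38.6 and 33.9 CPM), lay within 2-fold. Esrrb, lower by the rule, still stood at 375 CPM in cEpiSC, against 830 CPM in mESC. Among 4 factors of both states, Pou5f1 stood at 841 and 922 CPM and Nanog at 1218 and 642 CPM. In RNA from whole cultures, fewer cells of a type and less RNA per cell cannot be told apart. Each state has 1 library, so differences were not checked against replicates and no test across libraries was made. Each log2 ratio of cEpiSC over mESC is followed by its exact 95% interval, which covers counting error only.

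All 10 formins were detected in both libraries and passed the abundance filter of 1 CPM in at least 1 library. By the rule of a 2-fold difference or more, 1 member was higher in cEpiSC (Fhod3), 2 were lower (Fmnl1 and Fmn1) and 7 lay within 2-fold. Among all 13243 tested genes, 13.6% were higher and 9.25% lower by this rule, 22.8% in all, so 3 called members of 10 is near the share of genes in general. The members' median log2 ratio was -0.32, against -0.02 over all tested genes. Intervals lay off 0 for 9 of the 10, as they did for 75.8% of tested genes, and 5 of those 9 lay below 0 (39.1% of tested genes) and 4 above (36.6%). Intervals lay wholly beyond 2-fold for Fmnl1 below (6.34% of tested genes) and Fhod3 above (9.15%).

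**Figure D1:**
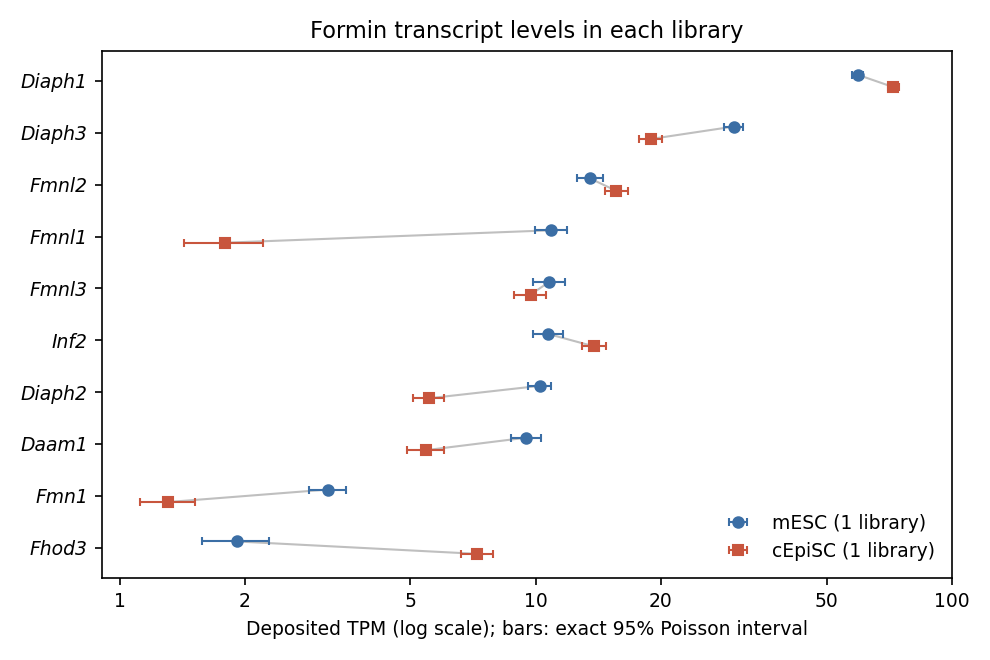
Deposited TPM (a level per transcript length and library size, log axis) of the 10 formins in the mESC library (circles) and the cEpiSC library (squares), with exact 95% Poisson intervals as bars and a grey line joining each pair. Diaph1 is highest in both libraries at 59.4 and 72.4 TPM, Fmnl1 goes from the middle of the family to 1.79 TPM, and Fhod3 goes from the lowest place to 7.24 TPM.

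The diaphanous formins, which make long straight filaments, went different ways. Diaph1 (chromosome 18, 37843601 to 37935622 in GRCm38.p6) had 3549 counts in mESC and 4730 in cEpiSC, or 183 and 231 CPM. It was 1.26-fold higher in cEpiSC, at a log2 ratio of 0.33 (0.27 to 0.40). Diaph3 (chromosome 14, 86655357 to 87141247), also studied for its part in cell division, had 1366 and 959 counts, or 70.6 and 46.9 CPM. It was 1.51-fold lower in cEpiSC, at -0.59 (-0.71 to -0.47). Diaph2 (chromosome X, 129749668 to 130465834) had 932 and 547 counts, or 48.2 and 26.7 CPM, and was 1.80-fold lower at -0.85 (-1.0045 to -0.70). The Diaph1 interval did not meet those of Diaph2 and Diaph3. The sum of the 3 genes nevertheless stood at 302 and 305 CPM, a log2 ratio of 0.01 (-0.04 to 0.06). Per length, Diaph1 made up 59.7% of the summed TPM of the 3 genes in mESC and 74.8% in cEpiSC, while Diaph3 went from 30.1% to 19.5% and Diaph2 from 10.3% to 5.71%.

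The FMNL formins, which work at the leading edge and in filopodia, differed most among themselves. Fmnl1 (chromosome 11, 103171004 to 103198902), first known from leukocytes, had 489 counts in mESC and 84 in cEpiSC, or 25.3 and 4.10 CPM. This 6.16-fold lower level (log2 ratio -2.59 [-2.97 to -2.29]) was the lowest ratio of the 10, and 1.61% of all tested genes had a lower one. Fmnl3 (chromosome 15, 99317210 to 99370521) also had 489 counts in mESC but 498 in cEpiSC, or 25.3 and 24.3 CPM. Its log2 ratio was -0.05 (-0.24 to 0.13), which spans 0, so the depth does not resolve a difference; the sign changed with library totals (0.02) and with length centring (0.04). Fmnl2 (chromosome 2, 52857717 to 53134202) had 766 and 974 counts, or 39.6 and 47.6 CPM, at 0.27 (0.13 to 0.40). Per length, Fmnl1 provided 31.0% of the summed FMNL TPM in mESC and 6.598% in cEpiSC, and Fmnl2 went from 38.4% to 57.6%. The sum of the 3 genes was lower in cEpiSC, at 90.1 and 76.0 CPM, a log2 ratio of -0.25 (-0.34 to -0.15).

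**Figure D2:**
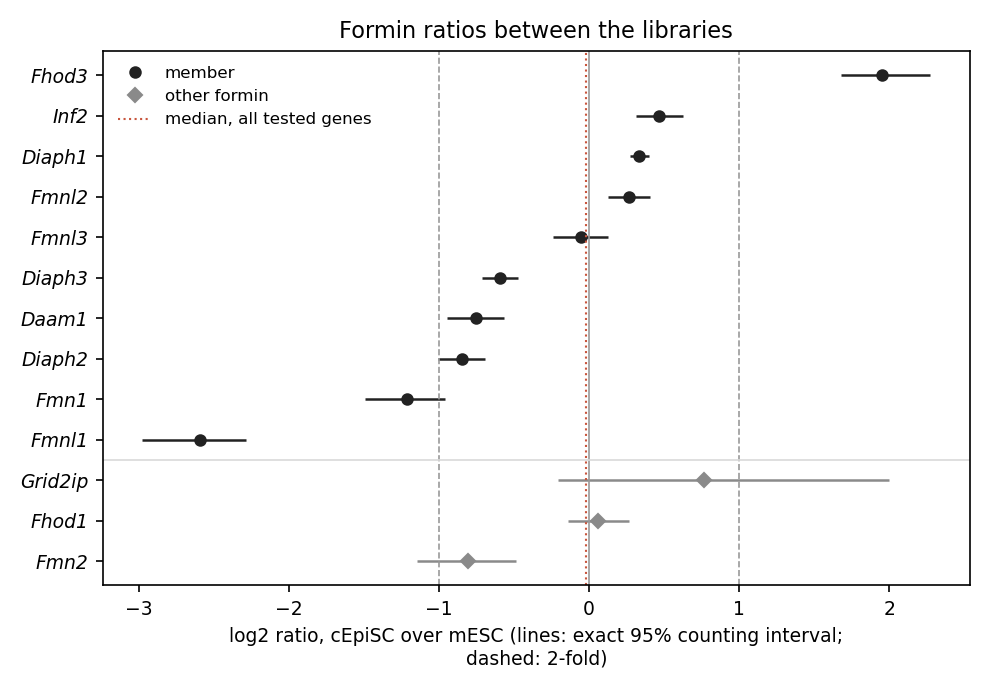
The log2 ratio of cEpiSC over mESC for the 10 members (circles) and the 3 other tested formins (diamonds), with exact 95% counting intervals as lines. Dashed lines mark 2-fold and the dotted line the median of all tested genes (-0.02). Fmnl1 (-2.59) and Fhod3 (1.95) lie wholly beyond 2-fold, and the interval of Fmn1 crosses the lower dashed line.

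Fhod3, a formin best known for organising actin in heart muscle, was the member with the highest ratio. Fhod3 (chromosome 18, 24708388 to 25133507) had 118 counts in mESC and 489 in cEpiSC, or 6.10 and 23.9 CPM. It was 3.92-fold higher in cEpiSC at 1.95 (1.68 to 2.27), and 93.9% of all tested genes had a lower ratio. It overlaps the gene Tpgs2, which had 668 and 809 counts. Whether the counting used strand is not given in the sources used here, so reads of the pair may be mixed. The related Fhod1, which was not among the members chosen, had 372 and 411 counts, at 0.06 (-0.14 to 0.27).

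Fmn1 (chromosome 2, 113327664 to 113716768), the founding gene of the family and known for its role in limb development, had 377 counts in mESC and 171 in cEpiSC, or 19.5 and 8.36 CPM. It was 2.33-fold lower in cEpiSC at -1.21 (-1.49 to -0.96). The 2-fold call did not hold on the log2(TPM + 1) scale (-0.85), on the log2(FPKM + 1) scale (-0.62) or after centring on transcript length (-0.89). Fmn2, its relative outside the chosen members and known from oocyte spindle positioning, had 206 and 124 counts, at -0.80 (-1.15 to -0.48). Daam1 (chromosome 12, 71830950 to 71992376), which is activated by Dishevelled in planar cell polarity signalling, had 593 and 372 counts, or 30.6 and 18.2 CPM. It was 1.69-fold lower at -0.75 (-0.94 to -0.56). Its relative Daam2 had 4 and 1 counts and was not tested. Grid2ip, a formin of Purkinje cell synapses, had 12 and 23 counts, at 0.76 (-0.21 to 2.00).

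Inf2 (chromosome 12, 112588744 to 112615557), a formin that can also take filaments apart and that acts at the endoplasmic reticulum and mitochondria, had 578 counts in mESC and 846 in cEpiSC, or 29.9 and 41.3 CPM. It was 1.38-fold higher in cEpiSC at 0.47 (0.31 to 0.62). Inf2, Diaph1 and Fmnl2 were thus the members within 2-fold whose interval lay above 0, and Diaph2, Diaph3 and Daam1 those whose interval lay below it.

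The members' levels were set against each other as TPM, which is per length. In mESC the order was Diaph1 at 59.4 TPM, Diaph3 at 29.9, Fmnl2 at 13.5, then Fmnl1 (10.9), Fmnl3 (10.8), Inf2 (10.7), Diaph2 (10.2) and Daam1 (9.48), and last Fmn1 at 3.16 and Fhod3 at 1.91. Of the 9 pairs of neighbours in that order, 5 differed beyond counting error. The 4 pairs that did not were those from Fmnl1 (10.9 TPM) down to Daam1 (9.48 TPM), and only neighbours were compared. In cEpiSC these 5 genes lay further apart, from Inf2 at 13.8 TPM to Fmnl1 at 1.79 TPM. The order there was Diaph1 (72.4 TPM), Diaph3 (18.9), Fmnl2 (15.6), Inf2 (13.8), Fmnl3 (9.72), Fhod3 (7.24), Diaph2 (5.53), Daam1 (5.45), Fmnl1 (1.79) and Fmn1 (1.31). In cEpiSC 8 of 9 pairs of neighbours differed beyond counting error, the exception being Diaph2 and Daam1. The gap between Diaph1 and Diaph3 was 1.99-fold in mESC and 3.83-fold in cEpiSC. By rank among the 18032 listed genes, Diaph1 stood at 2969 in mESC and 2239 in cEpiSC, Fmnl1 at 8048 and 11598, and Fhod3 at 11184 and 8937.

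The family's summed level hardly differed, while its make-up did. The 10 members together had 9257 and 9670 counts, or 478 and 473 CPM, at a log2 ratio of -0.02 (-0.06 to 0.02). The sign of that sum depended on the scaling, at 0.055 with library totals and 0.045 with FPKM. Without Diaph1 the other 9 summed to 295 and 241 CPM, at -0.29 (-0.34 to -0.23). In TPM, the members summed to 160.0 in mESC and 152 in cEpiSC. The share of Diaph1 in that sum was 37.1% and 47.7%, that of Fhod3 1.19% and 4.77%, and that of Inf2 6.70% and 9.11%. The share of Diaph3 was 18.7% and 12.5%, and that of Fmnl1 6.82% and 1.18%.

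**Figure D3:**
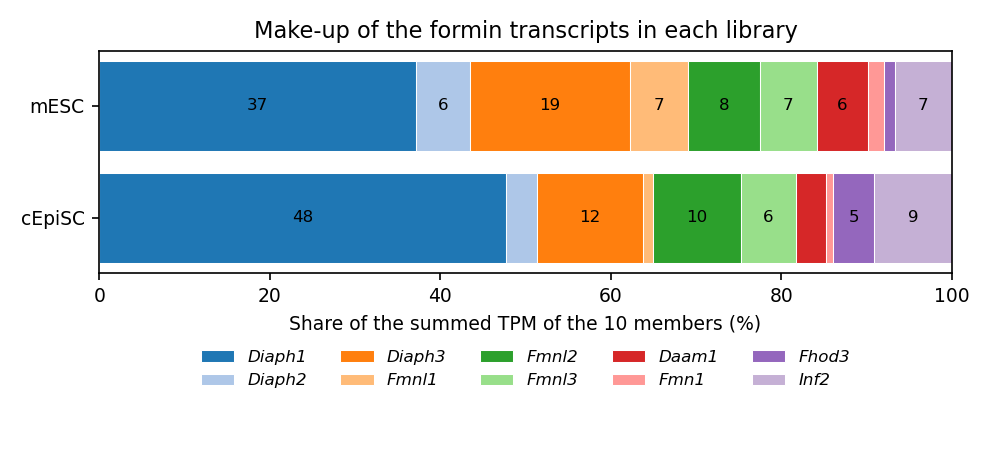
Stacked bars of each member's share of the summed TPM of the 10 formins, in the mESC and the cEpiSC library, with shares above 4.5% printed in whole percent. Diaph1 takes 37.1% of the mESC bar and 47.7% of the cEpiSC bar, and Fmnl1 shrinks from 6.82% to 1.18%.

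The deposited values also allow a look at transcript models, since counts divided by FPKM give the effective length, averaged over transcripts, that was used for each gene. For the 10 members the length in cEpiSC lay between 0.965 (Fmnl1) and 1.04 (Inf2) times that in mESC. Among 10876 genes with at least 50 counts in both libraries, 93.6% lay within 5% of the same length, and all 10 members did as well. The implied lengths of Fmnl1 were 4156 and 4009 bases, those of Inf2 4996 and 5189 bases and those of Fmnl3 4212 and 4347 bases. Fmn1, with the longest effective length of the 10, stood at 11046 and 11128 bases. Every member's count was whole to within 0.005 in both libraries; a fractional count would mark reads shared with similar loci. Of the 10, 9 overlapped another annotated gene, 13 such genes in all, of which Tpgs2 was the 1 listed in the deposited table.

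With 2 libraries, a likeness of pattern means only similar levels in both. Nearest to Fmnl1 by log2(CPM + 1) in the 2 libraries were Slc15a1, a peptide transporter gene, at 24.0 and 4.35 CPM (distance 0.099), and the cytokine gene Il34, at 23.0 and 3.91 CPM (distance 0.14). Nearest to Fhod3 were Slc5a11, a sodium-coupled inositol transporter gene, at 5.68 and 24.4 CPM (distance 0.091), and Ccdc92b, at 6.15 and 25.9 CPM (distance 0.11).

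Other partners and regulators of formins were mostly below 0. Among 21 tested genes, 3 passed the 2-fold rule downward and none upward, and 18 lay below 0 against 51.2% of all tested genes. The median log2 ratio was -0.45, or -0.27 after centring on transcript length. With library totals, or with no filter, Mal2 counted as 1 higher gene; it had 8 and 20 counts. Mal, which encodes a membrane protein that works with Inf2 in vesicle transport, had 239 and 0 counts, which with a floor of 3 counts makes it at least 84.3-fold lower. Cap2, of the actin-binding CAP proteins known to hold Inf2 inactive, stood at 12.3 and 4.01 CPM (-1.59 [-1.998 to -1.25]). The more abundant Cap1, with shared reads, lay within 2-fold at 365 and 257 CPM (-0.51 [-0.56 to -0.46]). Dvl3, a Dishevelled gene, stood at 73.1 and 31.4 CPM (-1.22 [-1.36 to -1.09]). The median was the same with Mal at its bound, as it must be because Mal stays the lowest of the list.

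Of the profilins, which deliver actin to formins, the main gene hardly differed. Pfn1 had 14028 counts in each library, or 725 and 685 CPM (-0.08 [-0.11 to -0.05]). Pfn2, the form common in neurons, stood at 10.2 and 21.6 CPM (1.08 [0.84 to 1.33]; 0.97, within 2-fold, on the log2(TPM + 1) scale), and Pfn4 had 17 and 32 counts (0.77 [-0.06 to 1.77]). The median of these 3 was 0.77.

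Other proteins that nucleate or lengthen unbranched filaments numbered 9 tested genes, of which 3 passed the 2-fold rule upward and 2 downward (median 0.29). Spire2 (11.5 and 28.7 CPM, 1.31 [1.09 to 1.54]) and Spire1 (33.4 and 68.8 CPM, 1.04 [0.91 to 1.18]), whose products work with Fmn formins, were higher by the 2-fold rule. Spire1 lay just within 2-fold on the log2(TPM + 1) scale, at 0.93. Lmod1, a leiomodin gene, had 10 and 65 counts (2.41 [1.65 to 3.75]). The lower genes were Lmod3, with 21 and 0 counts (at least 7.40-fold lower against the floor), and Cobl, at 329 and 136 CPM (-1.27 [-1.34 to -1.21]). The median was the same with Lmod3 at its bound, as it must be because Lmod3 stays the lowest of the list. Lmod1 and Lmod3, both of few counts, lay within 2-fold on the log2(TPM + 1) scale (0.97 and -0.97) and did not pass a filter of 5 CPM, and Vasp passed the rule downward on that scale (-1.03, against -0.99 as reported).

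Genes for barbed-end capping or its regulation numbered 14 tested genes, of which 3 passed the 2-fold rule upward and 2 downward (median -0.16). Capping competes with formins for filament ends. The list also holds regulators that counteract capping, the Carmil genes among them, so its counts give no direction for capping. Carmil2 (9.97 and 32.6 CPM, 1.70 [1.48 to 1.95]), Carmil3 (6 and 24 counts, 1.63 [0.59 to 3.50]) and Twf2 (41.8 and 84.4 CPM, 1.01 [0.89 to 1.14]) were higher. Eps8l2 (122 and 47.2 CPM, -1.36 [-1.48 to -1.26]) and Gsn, which encodes gelsolin (31.9 and 14.6 CPM, -1.12 [-1.33 to -0.93]), were lower. On the log2(TPM + 1) scale Twf2 (0.95) and Carmil3 (0.27) lay within 2-fold, as did Gsn on the log2(FPKM + 1) scale (-0.95).

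**Figure D4:**
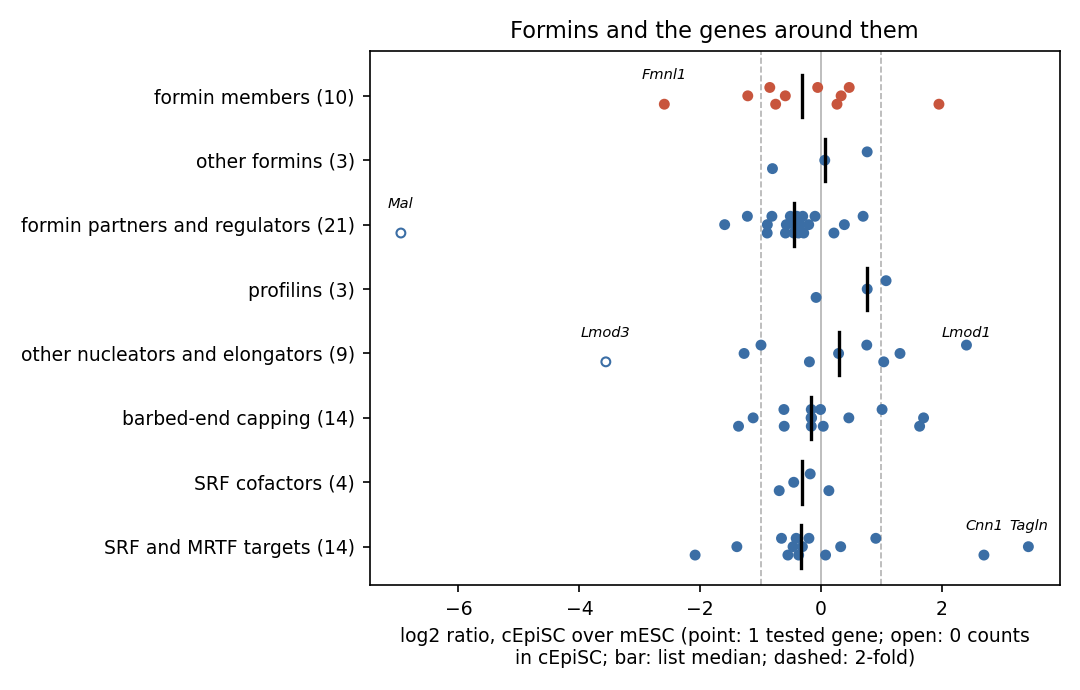
The log2 ratio of cEpiSC over mESC of each tested gene (points) in the 10 formins and in 7 lists of genes around them, with the list median as a black bar, 2-fold as dashed lines and the number of tested genes in brackets. Open points (Mal and Lmod3) had 0 counts in cEpiSC, so their place depends on the prior count. Most points of the partner list lie left of 0 (median -0.45).

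Formins lower the pool of free actin and thereby release MRTF cofactors to SRF, a transcription factor of cytoskeletal genes. Srf stood at 66.0 and 72.3 CPM (0.13 [0.02 to 0.24]), and its cofactor genes Mrtfa (listed as Mkl1) at 45.7 and 40.4 CPM (-0.18 [-0.32 to -0.04]) and Mrtfb (listed as Mkl2, with shared reads) at 31.8 and 23.3 CPM (-0.45 [-0.63 to -0.28]). None of the 4 tested genes of this list was 2-fold apart, and the median was -0.31. Of 14 tested SRF and MRTF targets, 2 passed the 2-fold rule upward and 2 downward, and the list's median was -0.34. The higher genes were close to silent in mESC: Tagln, with shared reads, had 2 and 43 counts and Cnn1 had 2 and 25, and neither passed a filter of 5 CPM. The lower genes were Cnn2 (80.0 and 18.8 CPM, -2.08 [-2.25 to -1.93]) and Myh9, a non-muscle myosin gene (562 and 214 CPM, -1.39 [-1.44 to -1.34]). Actb, with shared reads, stood at 2797 and 2031 CPM (-0.46 [-0.48 to -0.44]).

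Because Fmnl1 and Fhod3 are best known from blood and from heart muscle, markers of those cell types were read beside them. Of 8 leukocyte markers, 6 were tested, with 2 higher, 2 lower and 2 within 2-fold, and they summed to 263 and 125 CPM. Without Laptm5 (236 and 94.9 CPM) the sum was 27.4 and 30.0 CPM, and Ptprc, which encodes the pan-leukocyte antigen CD45, had 0 counts in both libraries, which allows up to 0.155 and 0.147 CPM. Spi1 was lower (6.25 and 2.35 CPM) and Itgam higher (0.517 and 10.7 CPM), as was Coro1a (1.29 and 2.83 CPM). On the log2(FPKM + 1) scale Spi1 and Coro1a lay within 2-fold, and Coro1a did not pass a filter of 5 CPM. The part of leukocyte-type transcripts in the Fmnl1 difference was not tested. Of 8 cardiac and striated muscle markers, 5 were tested, with 2 higher, 2 lower and 1 within 2-fold, summing to 12.4 and 20.5 CPM. None passed the 2-fold rule on the log2(FPKM + 1) scale, and none passed it upward on the log2(TPM + 1) scale. Myh6, with shared reads, had 15 and 95 counts and Ryr2 105 and 229, while Tnnt2 had 44 and 11, Myl7 had 35 and 13, Nkx2-5 had 2 and 10 and Actc1 had 0 and 2. The part of muscle-like transcripts in the Fhod3 difference was not tested.

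Markers of other cell types went different ways within each list. Fibroblast markers summed to 17.9 and 15.1 CPM, or 5.27 and 9.24 CPM without Pdgfrb, and the median log2 ratio of the 4 tested was 0.12, with Thy1 higher (1.09 and 4.59 CPM), Pdgfrb lower (12.6 and 5.86 CPM) and Dcn at 0 and 1 counts. Primitive endoderm markers summed to 76.6 and 32.3 CPM, or 16.8 and 15.7 CPM without Dab2 (59.8 and 16.6 CPM). Of the 5 tested, 3 lay above 0 and the median was 0.40: Gata6 stood at 5.63 and 7.48 CPM, while Gata4 was lower (8.79 and 4.30 CPM), a call lost under 5 of the 9 alternative settings, and Foxa2 had 1 and 0 counts. Streak and mesoderm markers summed to 31.3 and 17.0 CPM, or 17.8 and 3.57 CPM without Eomes (13.5 and 13.4 CPM). The median of the 5 tested was -1.88, with Gsc (264 and 6 counts) and Mixl1 (26 and 5) lower and Hand1 (3 and 38) higher. Neural markers summed to 109 and 51.4 CPM, or 39.1 and 25.4 CPM without Tubb3 (69.7 and 25.9 CPM). The median of the 5 tested was -0.81, with Tubb3 and Nes (25.9 and 11.9 CPM) lower. Pax6 was higher at 2 and 33 counts (with shared reads), and Dcx had 0 counts in both libraries. The calls of Pdgfrb, Mixl1, Nes and Pax6 were lost on both the log2(TPM + 1) and log2(FPKM + 1) scales, and that of Hand1 on the latter. The part of all these cell types in the formin differences was not tested.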

How the data were processed

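Polyadenylated RNA of 1 mESC and 1 cEpiSC library was analysed. Per the submitters' processing notes, RSEM 1.3.1, HISAT2, Bowtie2, DESeq2 1.34.0 and GRCm38.p6 were used, with no role stated. Annotation and filters: not given in the sources used here. Per the file headers, the deposited table holds estimated counts (unscaled), TPM (per kilobase, the same sum in each library, by the authors) and FPKM (per kilobase and fragment total, by the authors). It had 0 columns of other samples. Counts were rounded and scaled by TMM in edgeR 4.0.16 (R 4.3.3; factors 0.975 and 1.03). The log2 ratio used a prior count of 2; fold values used none. With no residual degrees of freedom, genes were called by size alone. Ratio intervals are exact conditional (Clopper-Pearson) and level intervals exact Poisson; without molecular identifiers, PCR copies count as separate reads, so only counting error is covered. The ratio code was tested on simulated counts: ratios were recovered, but interval coverage missed the level first set in the class with the largest increase, and was then judged over all changed genes pooled. Coordinates are from RefSeq by Entrez identifier (10 of 10 members).

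The members and gene lists were chosen with earlier results of these data known. Named are all formins, preset genes (profilins, Srf, Mrtfa, Mrtfb, Actb) and the 2 genes nearest to the lowest and highest member. Each list adds up to 3 genes with the largest absolute ratio among those 2-fold apart (otherwise the 2 most abundant). Others were added with their values in view, to complete small counts, show a related gene or give defining markers. The interval rules, the sums without Diaph1 or without a list's most abundant marker, the sums and shares by subfamily, the overlap check, the motifs and the choice of printed promoters were also made with values in view. Repeats used DESeq2 1.42.0 size factors, library totals, no filter, 5 CPM, prior counts of 0.5 and 5, TPM and FPKM with a pseudocount of 1, and centring on deciles of implied transcript length. Remaining steps used Python 3.11.15. One of the gene lists is not reported here.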

Additional observations from a re-analysis of the deposited data

How the results depend on the processing

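Of the 3 formins called at 2-fold, Fmnl1 and Fhod3 kept their call under all 9 alternative settings, with log2 ratios from -2.61 to -1.76 and from 1.37 to 2.10. Fmn1 lost its call on the log2(TPM + 1) and log2(FPKM + 1) scales and under length centring, so the number of formins lower was 1 under each of these. The added 1 is large beside its deposited TPM of 3.16 in mESC and 1.31 in cEpiSC. The summed formin log2 ratio was 0.055 with library totals, -0.075 with TPM and 0.045 with FPKM. Of 90 repeats of the members' ratios, 77 stayed inside the counting interval of the reported value and 13 moved outside it. The no-filter and 5 CPM settings change only which genes are tested. Each member's ratio under them was the reported one by construction and counts among the 77. For the 16 other gene lists, 45 of 288 repeats of a 2-fold count moved by over 1.5 times or away from 0. Of 144 repeats of a median, 34 left a band between the medians of the genes' lower and upper interval limits, infinite limits left out. For nucleators and elongators that band did not hold the reported median, so every repeat counted as moved. No median beyond 2-fold changed sign. With no filter the neural (-0.81 to 0.74) and leukocyte (-0.20 to 0.29) medians did. At 5 CPM the fibroblast (0.12 to -1.09) and primitive endoderm (0.40 to -1.01) medians did. That of other formins went from 0.06 to -0.37 under both. Nucleators and elongators went from 3 higher to 1 with TPM, 1 with FPKM and 2 at 5 CPM, and from 2 lower to 1 with FPKM and at 5 CPM. Genes for capping or its regulation went from 3 higher to 1 with TPM, and from 2 lower to 1 with FPKM. The formin median stayed between -0.38 (TPM) and -0.23 (length centring). The number of all genes higher was 2712 with no filter, 970 at 5 CPM, 1091 with TPM and 945 with FPKM, and the number lower was 680 with FPKM, against 1796 and 1225 as reported. Prior counts and length centring give no value for the sum. No paired analysis was possible because each group has 1 library. Depth limits the low members most: at 84 counts, the Fmnl1 level in cEpiSC of 1.79 TPM has a counting interval of 1.43 to 2.22.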
